A study of Mus musculus with 6 samples.

Results

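The p53 family of transcription factors, Trp53, Trp63 and Trp73, and the p53 and p63 target Perp were examined on microarrays of mouse esophagus and stomach organoids. All probes that carry one of these 4 gene names, of 34298 gene names on the array, were taken: 4 probes for Trp63, 1 for Trp53, 3 for Trp73 and 1 for Perp. The genes were chosen with the tissue differences of the Trp63 probes in these same values already known, so all values of the 9 probes are descriptions and carry no test. The array was a single-color mouse gene expression array of 60-base probes, hybridized once for each of 6 samples.

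Organoids are spheres of epithelium grown from tissue in a gel. The esophagus group held organoids of squamous epithelium from mice that the labels number 1, 2 and 4, and the stomach group held organoids of columnar epithelium from mice given the same 3 numbers. Differences within mice are between samples of 1 number, taken to be 1 animal. All were at passage 0. Harvest was on day 8, except for the stomach sample of mouse 4 (day 7). According to the methods, the stomach organoids came from glands of the corpus. The stomach medium contained WNT3A and R-spondin1 conditioned media and gastrin, whereas the esophagus medium lacked these and contained forskolin, and both contained EGF, noggin, FGF-10, nicotinamide, a TGF-β receptor kinase inhibitor and a ROCK inhibitor. Tissue and medium therefore cannot be told apart. The labels name no allele or agent beyond the word control and give neither strain nor age.

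Proteins of the p53 family bind related DNA elements. p53 is best known for arresting or killing damaged cells, and p63 for keeping the basal cells of stratified squamous epithelium, while p73 has roles in multiciliated cells and neurons. The Trp63 gene is transcribed from alternative promoters, giving proteins with or without the N-terminal transactivation domain, and is spliced into several C-terminal forms, so probes at different places on the gene need not read the same transcripts. Perp encodes a membrane protein of desmosomes in stratified epithelium.

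The sequences of the Trp63 probes are shown because the probes disagreed in direction. The annotation of the array places all 4 on the plus strand of chromosome 16 (mm9). Probe A_55_P1952056 lies furthest 5′ at chr16:25821344-25821403, probe A_52_P338796 lies at chr16:25867718-25867777, probe A_55_P2161055 at chr16:25871159-25871218 and probe A_51_P216550 furthest 3′ at chr16:25892012-25892071. Each line gives the probe 5′ to 3′, the first 30 bases for 3 of the probes and all 60 bases for A_55_P2161055, whose capitals mark an unbroken run of the CAG repeat.
A_55_P1952056: acttaccatgtgtcctggctatagcttttc
A_52_P338796: cagtcccatataccatgcacttaactcttt
A_55_P2161055: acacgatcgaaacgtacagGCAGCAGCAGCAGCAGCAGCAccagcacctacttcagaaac
A_51_P216550: caaaaggtactttcttatagacatgatact

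The array annotation assigns different transcript numbers to each of the 4 Trp63 probes. The numbers alone do not show that a probe reads only the transcripts assigned to it. Whether transcripts assigned to another probe also contain its sequence was not tested. A_55_P1952056 is assigned to the Ensembl transcript ENSMUST00000115307.7 and to no RefSeq transcript, and A_52_P338796 to ENSMUST00000115304.7 and likewise to none. A_55_P2161055 is assigned to ENSMUST00000115308.8 and to 3 RefSeq transcripts, NM_001127261, NM_001127263 and NM_001127265. A_51_P216550 is assigned to 4 others, NM_011641, NM_001127259, NM_001127260 and NM_001127264. The RefSeq gene table holds 8 curated Trp63 transcripts, of which 7 are named by a probe and NM_001127262 by none. The annotation gives transcript numbers but not which promoter or C-terminal form each has, so no probe is called specific for a p63 isoform here.

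Of the 4 Trp63 probes, 3 were higher in esophagus on every array, by 6.06 to 8.55 on the log2 scale, and 1 was higher in stomach on every array. Values are normalized log2 intensities, and means are given with the SD of 3 arrays. A probe is called well above background on an array where the scanner software marked at least 1 of its spots so. Where a probe was below that mark on every stomach array, the fold is given as a lower bound, against the dimmest signal still well above background on each array or the value of the probe itself, whichever was higher. For Trp73, P3h2 and Tfap2c the values themselves were higher, so that their bounds equal the fold of the means. These bounds hold for the deposited values only, since the size of a dim signal changes with the background step. That dimmest signal could be a mean over several spots of which only 1 was marked, so the bounds may be too high. In such bulk samples fewer cells of a type and less RNA per cell cannot be told apart.

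The Trp63 probe at the 3′ end, A_51_P216550, read 13.46, 12.96 and 12.42 in esophagus of mice 1, 2 and 4, and 4.27, 4.56 and 4.36 in stomach. All esophagus arrays were bright and no stomach array reached the background mark. The means were 12.95 ± 0.52 and 4.40 ± 0.15 (SD, n = 3 each), a difference of 8.55, and the signal was at least 336-fold higher in esophagus. The difference was 7.10 with normexp at an offset of 50 and 11.43 with 75th percentile scaling of background-subtracted intensity. The latter setting, called percentile scaling below, changed the background step and the scaling together. The difference was 9.19, 8.41 and 8.05 in mice 1, 2 and 4.

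The most 5′ Trp63 probe, A_55_P1952056, read 11.57, 11.14 and 11.39 in esophagus and 4.85, 4.89 and 4.53 in stomach, in the same order of mice. Its means were 11.37 ± 0.22 and 4.76 ± 0.20 (SD, n = 3 each), a difference of 6.61, or at least 95.8-fold, and 5.37 and 9.86 under these settings. Trp63 probe A_52_P338796 read 10.61, 10.43 and 10.24 in esophagus and 4.71, 4.24 and 4.15 in stomach. Here too the esophagus arrays stood apart and all stomach arrays were below the background mark. Its means were 10.43 ± 0.18 and 4.37 ± 0.30 (SD, n = 3 each), a difference of 6.06, or at least 55.7-fold, and 4.63 and 8.83 under the same settings.

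The Trp63 probe with the CAG run, A_55_P2161055, went the other way. It read 9.90, 10.00 and 10.06 in esophagus and 11.39, 11.66 and 10.57 in stomach, and it was well above background on all 6 arrays. The esophagus arrays lay close together, the stomach arrays of mice 1 and 2 lay highest, and the stomach array of mouse 4 lay 0.51 above the nearest esophagus array. The means were 9.99 ± 0.08 and 11.20 ± 0.57 (SD, n = 3 each), a difference of -1.22, or 2.32-fold higher in stomach. The difference was -1.49, -1.66 and -0.51 in mice 1, 2 and 4. The esophagus array of mouse 4 was on another slide than the remaining 5 arrays, and on the slide that held both tissues the difference was -1.25 for this Trp63 probe and 8.81, 6.60 and 6.16 for A_51_P216550, A_55_P1952056 and A_52_P338796.

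**Figure D1:**
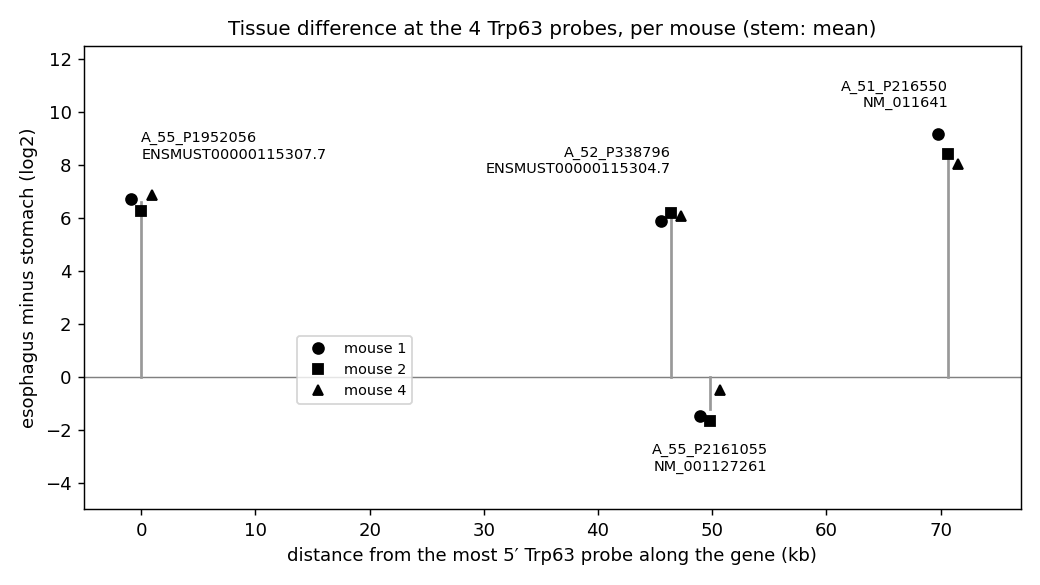
Each symbol is the esophagus minus stomach difference (log2, y axis) of 1 mouse at 1 of the 4 Trp63 probes, placed by its distance along the gene from the most 5′ probe (x axis, kb), and each stem is the mean over 3 mice. Symbols of a probe are set slightly apart sideways, and A_55_P2161055 alone lies below 0, between 2 probes with differences of 6.06 and 8.55.

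The 4 Trp63 probes span 70728 bases of the gene, and no probe of another gene name lies between them. A_55_P2161055 starts 49815 bases from the start of the most 5′ probe, between A_52_P338796 at 46374 bases and A_51_P216550 at 70668 bases, as the plot of differences along the gene shows. Of the genes around the locus, P3h2, a prolyl hydroxylase of collagen, has its probe 73864 bases downstream. P3h2 was higher in esophagus by 2.73 (log2, limma adjusted p = 1.25e-05), at least 6.65-fold, and stayed below the background mark in stomach. The nearest downstream probe, of 9230106L01Rik at 10517 bases, gave a difference of 0.67 (limma adjusted p = 0.256).

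Among all 55681 probes on the array, A_55_P2161055 had the longest run of the CAG repeat, at 21 bases, and the median longest run was 3 bases. The run was read on the probe strand and in any phase of the repeat. A run of 14 bases or more, a length set after the values had been seen, occurred in 8 probes or 0.0144% of all, the Trp63 probe among them. The 7 others were assigned to Crebbp (20 bases), BC051142 (18), Git2 (17), Arhgap17 (16), Pif1 (15), Eif3h (14) and to the unnamed probe A_55_P2077546 (16). All 7 were well above background on all 6 arrays, as were 38.5% of all probes. Their mean was higher in stomach for 6 and higher in esophagus for Eif3h, a translation initiation factor subunit. Adjusted p was under 0.05 for 3 of them, all higher in stomach. Of all probes 12.2% were called, 5.94% higher in esophagus and 6.22% higher in stomach. These shares include dim probes, so they are not a like baseline for the 7. The median difference was -0.92 for the 7 and 0.02 over all probes.

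By the distance between centered values over the 6 arrays, the probes ranked first and second in likeness to the Trp63 probe A_55_P2161055 also had a CAG run. The distance is the root mean square difference between probes after each is centered on its own mean, and 25844 probes of other genes, each well above background throughout 1 tissue or both, were ranked. The first was the probe of Arhgap17, a GTPase-activating protein, at 0.0703, and the second the probe of Crebbp, a histone acetyltransferase that binds p53, at 0.0731. The third, of Mia2, stood at 0.0834, had a longest run of 2 bases and stayed below the background mark throughout esophagus. The same Arhgap17 and Crebbp probes held the first and second rank, in either order, in each of the 3 other sets of normalized values. In this repeat, added after seeing the data, the dim Mia2 probe took ranks 16, 448 and 18202. All sets come from the same 6 hybridizations, so the repeat bears on the processing only. The probes with a run in Git2, Pif1 and BC051142 ranked 578, 605 and 669 and A_55_P2077546 ranked 275. Under percentile scaling BC051142 fell to rank 5145 and A_55_P2077546 moved to 54. Eif3h ranked 17402.

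Second probes of Arhgap17 and Crebbp gave differences of the opposite sign that did not pass the test. The Arhgap17 probe with the run, A_55_P2112360, read 9.93 ± 0.07 in esophagus and 11.08 ± 0.56 in stomach (SD, n = 3 each), a difference of -1.15 (limma adjusted p = 0.0304). The other Arhgap17 probe, A_51_P359983, is assigned to the same transcript NM_144529, has a longest run of 4 bases, and gave a difference of 0.56 (limma adjusted p = 0.158). The Crebbp probe with the run, A_55_P1965836, gave -1.08 (limma adjusted p = 0.0416), and Crebbp probe A_55_P2054540, with a longest run of 3 bases, gave 0.24 (limma adjusted p = 0.437). Crebbp was the only gene with a probe that shares 20 or more consecutive bases with A_55_P2161055. The second probe of BC051142 was not above background on any array, and that of Eif3h gave 0.46 (limma adjusted p = 0.181) beside 0.44 (0.232) for the probe with the run. The part of the CAG run in the Trp63 values was not tested.

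**Figure D2:**
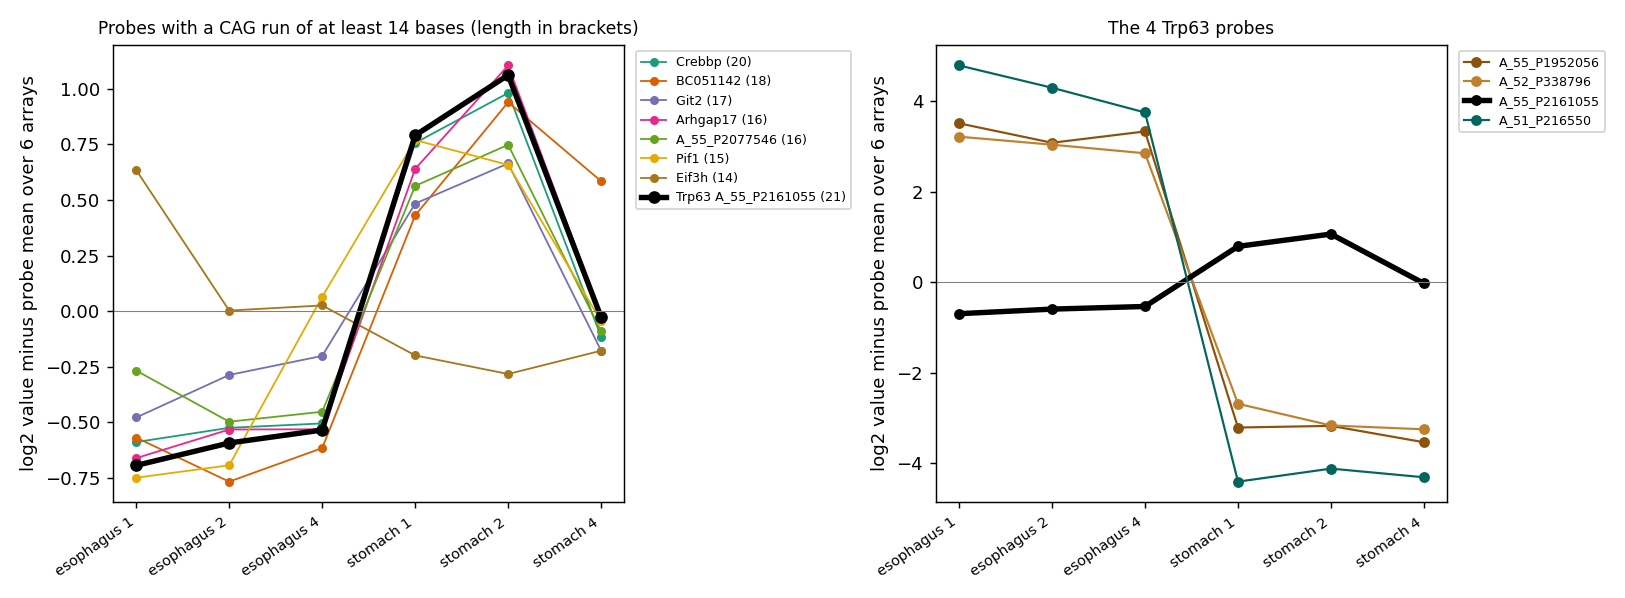
Left, the log2 value of each of the 8 probes with a CAG run of at least 14 bases, minus its own mean over the 6 arrays (y axis), for each array (x axis), with the run length in brackets and the Trp63 probe in black. Right, the same for the 4 Trp63 probes, on a wider y axis. The black line rises in stomach of mice 1 and 2 with those of Crebbp and Arhgap17 at the left and opposes the 3 other Trp63 probes at the right.

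The 3 other Trp63 probes were nearest to different genes by the same measure. For A_51_P216550 the nearest 3 included Tmprss11a, a membrane serine protease, at 0.231 and Cpe at 0.260. For A_55_P1952056 they were Fjx1 at 0.224, Nrg1, a ligand of ErbB receptors, at 0.240 and Htra1 at 0.247. For A_52_P338796 they were Adarb1, an RNA-editing enzyme, at 0.128, Mreg at 0.308 and Cd109 at 0.310. All 3 of these Trp63 probes were below the background mark on every stomach array, so the distances rest in part on such values. They were not repeated under other background steps, and nothing is read from them.

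The Trp53 probe and 1 of the Trp73 probes are shown for contrast with the repeat of the Trp63 probe. The Trp53 probe A_55_P1968068 lies at chr11:69404204-69404263 on the plus strand and is assigned to both curated RefSeq transcripts, NM_011640 and NM_001127233. The Trp73 probe A_55_P1988133 lies at chr4:153433098-153433157 on the minus strand (mm9 for both). The longest CAG run was 6 bases in each and is not capitalized.
A_55_P1968068: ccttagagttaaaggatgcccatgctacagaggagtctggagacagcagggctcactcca
A_55_P1988133: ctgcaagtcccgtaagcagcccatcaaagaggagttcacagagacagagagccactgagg

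Trp53 was measured well above background on all 6 arrays and was higher in esophagus. The probe, averaged over 2 spots that differed by at most 0.36 on any array, read 9.88, 9.73 and 10.35 in esophagus of mice 1, 2 and 4, and 8.66, 8.45 and 9.42 in stomach. The arrays of mouse 4 were the highest of each tissue, and the tissues did not overlap. The means were 9.99 ± 0.33 and 8.84 ± 0.51 (SD, n = 3 each), a difference of 1.14, or 2.21-fold. Within mice the Trp53 difference was 1.22, 1.28 and 0.93.

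The 3 Trp73 probes are assigned to the same 3 RefSeq transcripts, NM_011642, NM_001126330 and NM_001126331, and each to an Ensembl transcript of its own. Trp73 probe A_52_P193555, nearest the 3′ end at chr4:153430443-153430502, read 9.14, 7.78 and 7.32 in esophagus and 4.53, 4.63 and 4.83 in stomach. The esophagus of mouse 1 stood above the other 2 mice, and no stomach array was well above background. The means were 8.08 ± 0.94 and 4.66 ± 0.15 (SD, n = 3 each), a difference of 3.42, and the signal was at least 10.7-fold higher in esophagus. The difference was 2.34 with normexp at an offset of 50 and 6.21 with 75th percentile scaling.

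Trp73 probe A_52_P410636, at chr4:153433043-153433102, read 7.43, 7.06 and 6.70 in esophagus and 6.50, 6.55 and 6.42 in stomach. It was well above background on all 6 arrays, and its means of 7.07 ± 0.36 and 6.49 ± 0.07 (SD, n = 3 each) differed by 0.58, or 1.49-fold. The esophagus of mouse 4 lay only just above the stomach arrays. Trp73 probe A_55_P1988133, which overlaps its neighbour at the end, read 5.38, 5.47 and 5.72 in esophagus and 5.15, 4.92 and 5.25 in stomach. It was well above background on 2 esophagus arrays and on no stomach array, and the difference of its means, 5.52 ± 0.18 and 5.11 ± 0.17 (SD, n = 3 each), was 0.41, or at least 1.33-fold. This difference was 0.28 with normexp at an offset of 50 and 1.42 with 75th percentile scaling. The 3 probes of Trp73 thus gave the same direction with differences from 0.41 to 3.42.

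Perp was bright in both tissues and higher in esophagus. Its probe A_51_P317941, at chr10:18576697-18576756 and assigned to NM_022032, read 16.97, 17.04 and 16.66 in esophagus of mice 1, 2 and 4, and 14.49, 14.49 and 14.70 in stomach. The means of 16.89 ± 0.21 and 14.56 ± 0.12 (SD, n = 3 each) differed by 2.33, or 5.02-fold, and the difference was 2.48, 2.55 and 1.95 within mice.

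**Figure D3:**
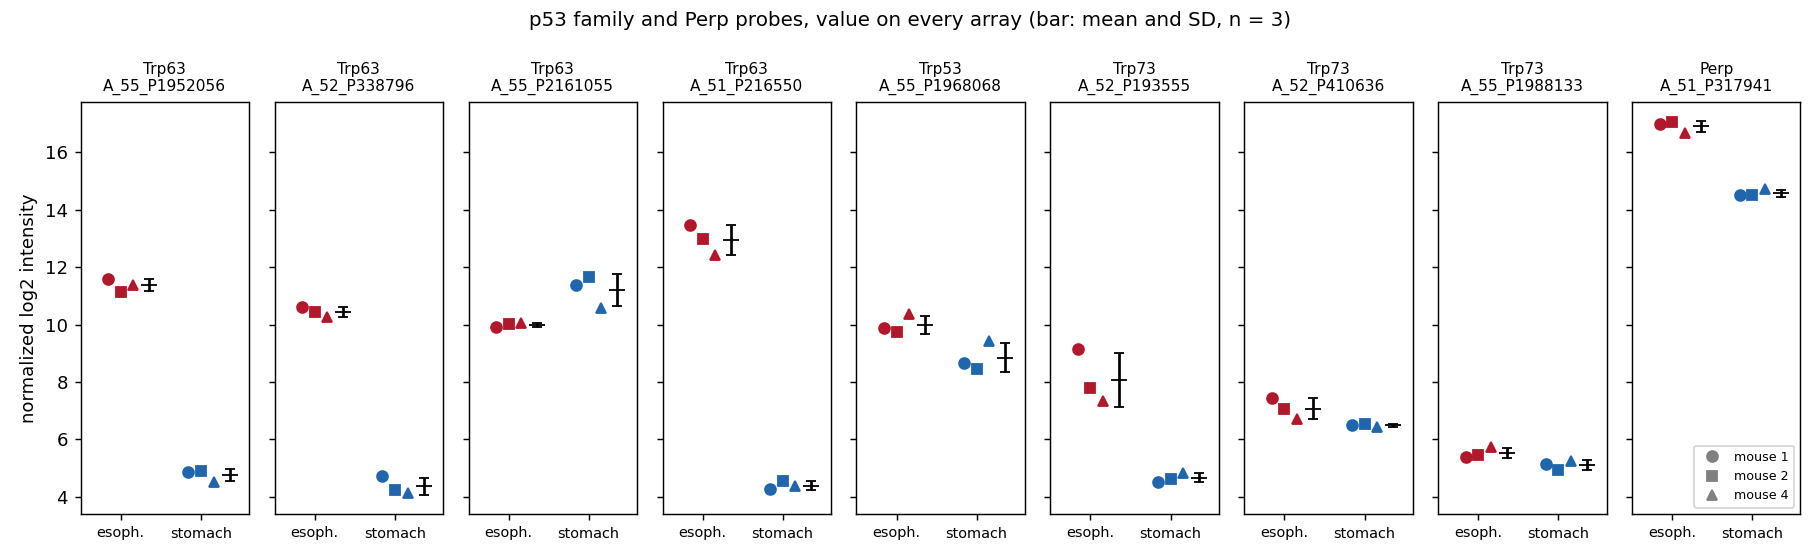
Normalized log2 intensity (y axis) of each probe of Trp63, Trp53, Trp73 and Perp on every array, esophagus in red and stomach in blue, with a symbol for each mouse and bars for the mean and SD (n = 3). Levels are to be read within a panel only, since probes differ in brightness. The tissues do not overlap in any panel, and only Trp63 A_55_P2161055 is higher in stomach.

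In all, the tissues did not overlap for any of the 9 probes, 8 of them higher in esophagus. Of all 55641 probes with a value on every array, 28.6% did not overlap, 15.2% being higher in esophagus. Since the genes were chosen on this contrast, nothing is read from the count. Of the 9 probes, 5 (3 of Trp63 and 2 of Trp73) were below the background mark on every stomach array, and 4 were well above background on all 6 arrays.

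The tissue labels were checked by marker lists. All 6 squamous markers were called higher in esophagus (limma adjusted p under 0.05), with none well above background on all 3 stomach arrays, and all 7 columnar markers were called higher in stomach. Of the columnar markers, Krt18 and Krt7 were well above background on all 3 esophagus arrays and Gkn1, Muc6 and Pgc on none. The linear intensity summed over the 7 columnar markers was 1573 to 3399 in esophagus and 485168 to 517831 in stomach. None of 8 fibroblast markers and none of 4 endothelial markers was called, and summed fibroblast intensity was 232 to 337 in esophagus and 256 to 274 in stomach. Of these, Acta2, Pecam1 and Kdr were well above background on all 6 arrays. The Acta2 probe had 10 spots and that of Pecam1 had 2, and 1 marked spot sufficed. Acta2 read 6.69 in esophagus of mouse 2 and 4.74 to 4.97 on the remaining arrays. Of 6 immune markers 1 was called, Itgam at -2.62. Cd68 went the other way at 1.63 without passing the test, Cd68 and Cd3e were well above background on all 6 arrays, and Ptprc and Lyz2 on none. Summed immune intensity was 5318 to 30618 in esophagus and 12035 to 17281 in stomach. The part of other cell types in the differences was not tested.

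Targets of p63 in epithelium were called higher in esophagus in many cases. Of 31, all on the array, 16 or 51.6% were called higher in esophagus and 1 or 3.23% higher in stomach, and 14 did not pass the test. Over all 34298 gene names, each by its brightest probe, 7.15% were called higher in esophagus and 7.7% higher in stomach. Of the 31 targets, 26 were well above background throughout 1 tissue or both, whereas the shares over all gene names include dim probes. The median difference was 1.19 for the list and 0.03 for all gene names. Krt5 and Krt14, the keratins of basal squamous cells, which are also squamous markers, differed by 11.93 ± 0.17 and 11.30 ± 0.22 (SE, limma adjusted p = 3.23e-08 and 1.01e-07). Krt5 was well above background on 1 and Krt14 on 2 of the 3 stomach arrays, and the differences were 10.88 and 10.27 with normexp at an offset of 50 and 14.05 and 12.26 with 75th percentile scaling.

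Among the other p63 targets called higher in esophagus were Tfap2c, Nectin1, Cdh3, Itgb4 and Jag2. Tfap2c, a transcription factor of epidermis, read 9.67 ± 0.22 in esophagus and 4.75 ± 0.05 in stomach (SD, n = 3 each), at least 30.2-fold apart in the deposited values (limma adjusted p = 9.45e-07). Its difference of 4.92 was 3.71 with normexp at an offset of 50 and 7.85 with 75th percentile scaling. Nectin1, an adhesion gene, was higher in esophagus by 4.38 ± 0.20 (SE, limma adjusted p = 5.23e-06). Cdh3, the gene of P-cadherin, was higher by 3.44 ± 0.16 (5.72e-06) and Itgb4, an integrin of hemidesmosomes, by 1.19 ± 0.16 (0.00245). The Notch ligand Jag2 was higher by 2.24 ± 0.15 (SE, limma adjusted p = 4.86e-05).

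Some p63 targets had probes that disagreed. The brightest probe of Dst, which encodes a linker of keratin to hemidesmosomes, was higher in esophagus by 4.90 ± 0.29 (SE, limma adjusted p = 2.53e-05), and of its 4 probes 2 were called higher in esophagus and A_52_P445253 was called higher in stomach, at -0.89 (0.0241). Itga6 was not called by its brightest probe (0.57, limma adjusted p = 0.171) and was called higher in stomach by its other probe (-1.57, 0.0019). Dlx3, a homeobox gene of epidermis, was the 1 target called higher in stomach, at -1.23 ± 0.18 (SE, limma adjusted p = 0.00353).

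The FGF receptor Fgfr2 was higher in esophagus by 1.33 ± 0.26 (SE, limma adjusted p = 0.0138), a call lost without stomach replicate 1 (1.37, 0.0564).

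Of 35 targets of p53 in the damage response, all on the array, 6 or 17.1% were called higher in esophagus, 1 or 2.86% higher in stomach, and 28 did not pass the test, with a median difference of 0.23. Over all gene names 7.15% were called higher in esophagus and 7.7% higher in stomach. Of the 35 targets, 34 were well above background throughout 1 tissue or both. The shares over all gene names include dim probes, so they are not a like baseline and nothing is read from the count. Without esophagus replicate 4, the array on the other slide, 9 of the targets were called higher in esophagus, and 4 were without stomach replicate 1, stomach replicate 2 or esophagus replicate 2 and with normexp at an offset of 50. Stratifin (Sfn), a checkpoint protein abundant in squamous epithelium, was higher in esophagus by 4.68 ± 0.32 (SE, limma adjusted p = 5.53e-05). Phlda3, an inhibitor of Akt, was higher by 2.91 ± 0.14 (8.29e-06) and Ddit4, an inhibitor of mTORC1, by 2.27 ± 0.20 (0.000213). Sesn1 was higher by 1.39 ± 0.21 (0.00419) and Ckap2 by 1.0 ± 0.25 (0.037). In the settings with 4 targets called higher in esophagus, these were Sfn, Phlda3, Ddit4 and Sesn1, so the call of Ckap2 was lost.

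Of 4 p53 targets picked for their roles in arrest, feedback and death, none was called. Cdkn1a, a cell cycle inhibitor, read 13.49, 13.00 and 11.56 in esophagus and 11.59, 11.60 and 12.48 in stomach, so that the tissues were in opposite order in mouse 4. Its difference was 0.79 ± 0.49 (SE, limma adjusted p = 0.398), and 1.35 (0.0374) without esophagus replicate 4. Mdm2, the ubiquitin ligase that degrades p53, gave 0.02 ± 0.18 (0.966), and Bax and Bbc3, which promote apoptosis, gave -0.52 ± 0.21 (0.174) and 0.00 ± 0.46 (0.999).

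Calls for Plk2 and Fas lay close to the threshold. Plk2, a polo-like kinase, was higher in esophagus by 2.16 ± 0.56 (SE, limma adjusted p = 0.0439), a call lost with the mouse as a block (adjusted p = 0.0771), with an offset of 50 (0.0975), in the trended robust fit (0.0563) and without any 1 array except esophagus replicate 4. With 1 array left out the Plk2 difference ranged from 1.74 to 2.87, the highest being without esophagus replicate 4. The death receptor Fas was lower in esophagus at -1.61 ± 0.41 (SE, limma adjusted p = 0.0403), a call lost within the slide that held both tissues (-1.37, adjusted p = 0.102), with an offset of 50 (-1.19, 0.0737) and without any 1 array except esophagus replicate 1, and kept with the mouse as a block (adjusted p = 0.0272).

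Of 22 genes that regulate the p53 family, 1 or 4.55% was called higher in esophagus, 2 or 9.09% higher in stomach, and 19 did not pass the test, with a median difference of 0.06. The shares of all gene names were 7.15% and 7.7%. Of the 22, 21 were well above background throughout 1 tissue or both, whereas the shares of all gene names include dim probes. The baseline is therefore not a like one, and nothing particular is read from the count. Ppp1r13l, an inhibitor of p53 of the ASPP family, was higher in esophagus by 2.39 ± 0.18 (SE, limma adjusted p = 8.49e-05). Ppp1r13b, a family member that stimulates p53, was higher in stomach, at -1.25 ± 0.21 (0.00719), and Trp53bp2, another stimulating member, gave -0.35 (0.473).

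The second regulator called higher in stomach was Crebbp, by the probe with the CAG run described above, and the call was lost without any 1 array except stomach replicate 4. It was also lost with the mouse as a block (limma adjusted p = 0.0526), within the slide of both tissues (0.0819), with an offset of 50 (0.0702) and with percentile scaling (0.170). Mdm4, a partner of Mdm2, gave -0.32 ± 0.42 (SE, limma adjusted p = 0.724), and -0.87 (0.0139) without stomach replicate 4. Cdkn2a, whose products restrain Mdm2 and cyclin-dependent kinases, gave -0.80 ± 0.27 (SE, limma adjusted p = 0.113), and -1.05 (0.0346) without esophagus replicate 1. Itch, a ubiquitin ligase of p63 and p73, gave -0.09 ± 0.18 (SE, limma adjusted p = 0.834). Trp53bp1 was not called by its brightest probe (-0.31, limma adjusted p = 0.380) and was called higher in stomach by its other probe (-0.80, 0.0408).

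**Figure D4:**
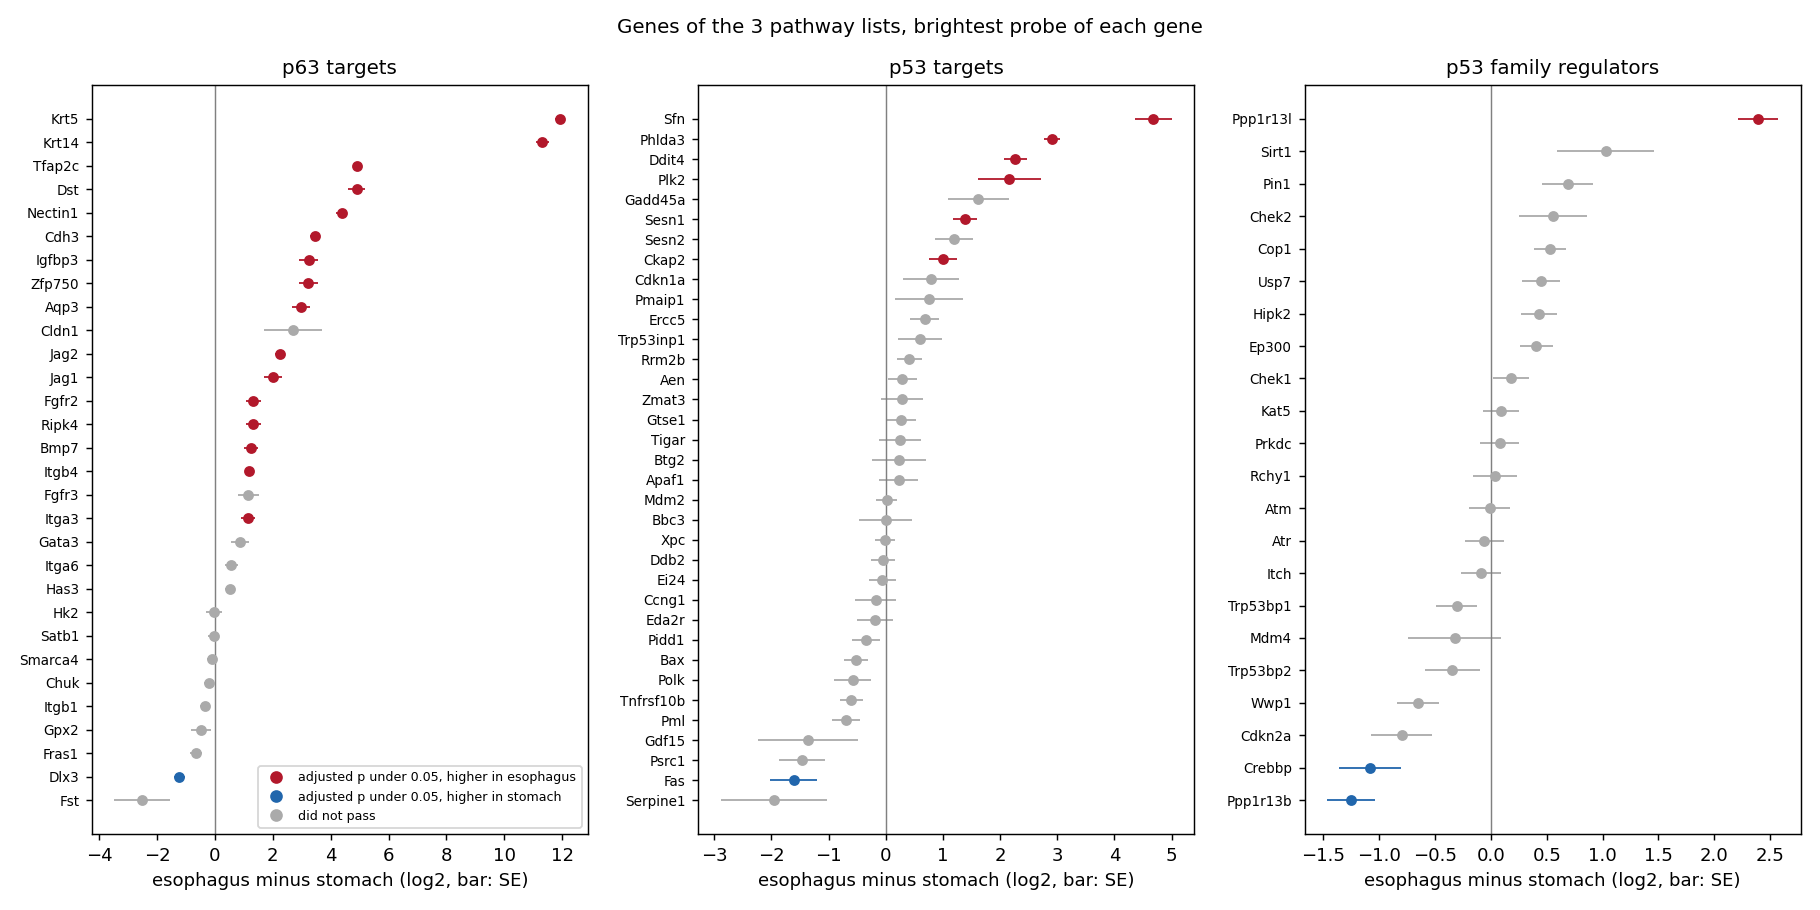
Esophagus minus stomach difference (log2, x axis, bar: SE) of the genes of the 3 lists, by their brightest probe, 1 uncalled p63 target not being shown, with genes of limma adjusted p under 0.05 in red (higher in esophagus) or blue (higher in stomach) and the rest in grey. The x axes differ in range. Red genes number 16 of 31 among the p63 targets, 6 of 35 among the p53 targets and 1 of 22 among the regulators.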

How the data were processed

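RNA of 6 organoid samples, 3 esophagus and 3 stomach from mice 1, 2 and 4, was hybridized to single-color arrays of 55681 distinct probes. The authors read the scans with Agilent Feature Extraction, and the deposited scanner files hold intensity values per spot, not normalized between arrays. The deposited table of log2 values, used here, was background corrected and quantile normalized by the authors. Its scale is log2, its columns were not centered, and normexp with an offset of 15 on median intensities followed by quantile normalization came within 0.00433 of these log2 values in the median and within 0.0726 at most. Column medians were 5.24 to 5.25. Its 2029 empty cells are spots marked as outliers, and none belongs to the 4 genes. Between 45.5% and 51.1% of non-control spots per array were well above background, and none was saturated. The number of arrays limits the precision.

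The probes of a gene were kept apart, spots of a probe were averaged, and in lists a gene stood by its brightest probe. In R 4.3.3 with limma 3.58.1, all 6 arrays were fitted with tissue as the only term (lmFit, eBayes), and p-values were adjusted by Benjamini and Hochberg over all probes, with a threshold of 0.05. No test was read for Trp63, Trp53, Trp73 or Perp. The members and lists were chosen with earlier results of these data known, so lists are given by counts and medians. Genes named from the lists were the 6 (regulators: 3) with the largest called differences and 4 fixed ones each, 1 of which is not reported here. Ckap2, Dlx3, Itga6 and Trp53bp1 were named after their values were seen. The labels give a mouse number, 1, 2 or 4, to an array of each tissue, and this number was taken as the animal. Across probes, deviations of the arrays of 1 number from their tissue means had r = 0.025, 0.012 and -0.0079, within the range of -0.073 to 0.040 between different numbers, so the values themselves show no pairing. Probes are in mm9 as the array files give them. RefSeq transcripts were taken from a gene table. On simulated data with a shift of 1.5 in 100 of 55641 probes, 61% were called, and 97% of 100 others with a shift of 3. Both sets were shifted in 1 simulation, with 6 false calls among the rest. Far fewer probes were shifted than the 12.2% called in the data, so these shares do not give the power of the real test. Alternatives were other intensities and offsets, percentile scaling of background-subtracted intensity, the mouse or slide as a block, a trended robust fit, a filter on dim probes, the thresholds of the methods (p under 0.05, 1.5-fold) and each array left out.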

Additional observations from a re-analysis of the deposited data

How the results depend on the processing

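The differences of Trp63, Trp53, Trp73 and Perp kept their sign under every alternative run, and those of the dim Trp63 probes changed in size with the background step. Under normexp with an offset of 50 the differences of A_55_P1952056, A_52_P338796 and A_51_P216550 were 5.37, 4.63 and 7.10, and under 75th percentile scaling of background-subtracted intensity they were 9.86, 8.83 and 11.43, a setting under which the median of all probes moved from 0.02 to 0.19. A_52_P193555 of Trp73 gave 2.34 and 6.21 under these settings, A_55_P1988133 0.28 and 1.42, and Perp 2.24 and 2.50. With 1 array left out, the Trp63 differences ranged from 6.49 to 6.72, 5.95 to 6.24, -1.54 to -0.99 (A_55_P2161055) and 8.30 to 8.81. With the mouse as replicate block 6153 probes were called, against 6770 without it, and with 1 array left out the count was 4091 (without stomach replicate 1) to 7415. Without stomach replicate 2 it was 4152. p53 targets called higher in stomach numbered 0 under the offset of 50 and within slide 1, 2 under the block, the trended robust fit and the filter on dim probes, and 4 by the methods' thresholds, with 0 (without stomach replicate 1 or 2 or esophagus replicate 4) to 4 (without esophagus replicate 1) leaving out 1 array, and those higher in esophagus 4 to 9 (9 without esophagus replicate 4). p63 targets called higher in stomach numbered 2 under percentile scaling and 3 by the methods' thresholds or by any probe, with 1 to 1 leaving out 1 array, and 13 to 18 were higher in esophagus. Regulators higher in esophagus numbered 2 under the offset of 50 or the mean of probes and 3 by the methods' thresholds. Regulators higher in stomach numbered 1 under the offset of 50, the block, slide 1 and the mean of probes, 0 under percentile scaling and 4 by the methods' thresholds, with 1 (without stomach replicate 1 or 2 or esophagus replicate 2 or 4) to 4 (without stomach replicate 4) leaving out 1 array. Ppp1r13b lost its call under percentile scaling (-1.0, limma adjusted p = 0.0812). Uncalled genes near 0 changed sign. Mdm2 ranged from -0.085 to 0.17 and Bbc3 from -0.49 to 0.55 with 1 array left out, Bbc3 was -0.019 and -0.0083 under offsets of 16 and 50, and Itch was 0.079 under percentile scaling and -0.23 to 0.0052 with 1 array left out. Bax ranged from -0.62 to -0.32 and Trp53bp2 from -0.61 to -0.18 with 1 array left out. The cause of these changes was not tested. Signal over background limits the dim probes, whose stomach levels are bounds.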
